A study of Mus musculus with 16 samples.

Results

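Nuclei from mouse hippocampal tissue were chosen for detection of a small group of genes led by Tshz2, Gm28905 and Vwc2l. A barcode became a member when it had 1000 to 7000 detected genes and at most 5% mitochondrial UMIs (unique molecular identifiers, each standing for 1 captured RNA molecule), held a UMI of at least 4 of the 7 genes Npsr1, Vwc2l, Tshz2, Atp10b, Gm28905, Gm49906 and Gm30382, and held none of Prox1, Foxp2, Fn1, Gad1, Gad2, Mog, Pdgfra or Csf1r. This left 5216 members among 129802 nuclei within the gene and mitochondrial limits and 155084 barcodes in all. Each of the 16 libraries gave between 135 and 484 of them. The members served to ask how nuclei with this group of genes in the dissected tissue responded to activation of type I interferon signaling, with and without the interferon receptor.

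All mice were male, and each library was 1 animal. The 8 wild-type (WT) mice were C57BL/6 aged 2 months and 23 days, with 4 given vehicle and 4 given DMXAA (5,6-dimethylxanthenone-4-acetic acid). The 8 Ifnar1-/- mice, which lack a subunit of the type I interferon receptor in every cell, were 3 months and 3 days old, again with 4 given vehicle and 4 given DMXAA. DMXAA or vehicle was injected repeatedly into the peritoneum, and tissue was frozen a day after the last dose. Genotype therefore coincided with age and cohort, and these cannot be told apart. All nuclei were sorted on DNA content with no selection for neurons, so glia and neurons of the dissected tissue, with any adjoining cortex in it, were sequenced together.

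Tshz2 encodes a zinc finger transcription factor that marks subsets of deep-layer and retrosplenial cortical neurons. Type I interferons bind a receptor made of IFNAR1 and IFNAR2, whose kinases JAK1 and TYK2 phosphorylate STAT proteins. With IRF9 these form a transcription factor complex that binds the interferon-stimulated response element and turns on interferon-stimulated genes, many of which sense or restrict viral RNA. DMXAA binds mouse STING, a sensor adaptor that acts through TBK1 and IRF3 to induce interferon-beta.

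Total UMIs per library ran from 66059561 to 93228638, and the members supplied 1911882 to 6384662 of them. The libraries shared between 12 and 41 barcodes per pair, and the members 0 or 1 per pair. The library WT DMXAA 3 stood apart from its group. Its member profile (log-scaled counts) correlated at a mean r of 0.987 with the Ifnar1-/- vehicle libraries and of 0.962 with the WT vehicle libraries, whereas the other WT DMXAA libraries were nearer to WT. Its summed level of interferon-stimulated genes was nonetheless above that of every WT vehicle library (363 against 233 to 251 CPM, counts scaled to a common library total, here and for named genes below corrected by TMM), although some of them lay below, such as H2-D1 (2.26 against 3.85 to 7.46) and Tor3a (4.03 against 8.10 to 10.7). Adar alone made up 150 CPM of that sum, against 87.7 to 113 in the WT vehicle libraries. For gene lists and named genes, values without WT DMXAA 3 are given where leaving it out turned a direction or changed a call. Ifnar1 itself did not separate the genotypes in the members. It stood at 10.7 to 18.2 CPM in the WT libraries and at 7.69 to 16.6 in the Ifnar1-/- libraries, with a fitted log2 difference of -0.09 ± 0.20 (SE) between the vehicle groups (edgeR quasi-likelihood test, Benjamini-Hochberg adjusted p = 0.737). Reads of a 3′ assay on unspliced RNA need not cover the deleted part of a gene, so this level checks neither label.

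The 7 genes that chose the members were held unequally, and these shares are a description of the choice, not a finding. Tshz2 (chr2:169633013-170071816, plus strand, mm10) was held by 96.3% of members. The long noncoding RNA Gm28905 (chr10:9976627-10207981, plus strand) was held by 95.1%, and Vwc2l (chr1:70725715-70885397, plus strand), which encodes a secreted protein with a von Willebrand factor type C domain, by 87.6%. The noncoding RNAs Gm49906 (chr17:50339252-50398475, plus strand) and Gm30382 (chr3:149284418-149445301, minus strand) were held by 76.0% and 74.9%. Tshz2 and Gm28905 were thus in nearly all members and Vwc2l in most.

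Npsr1, the neuropeptide S receptor (chr9:24097996-24316398, plus strand), and Atp10b, a lipid flippase (chr11:43149877-43262285, plus strand), were held by few members. Npsr1 was held by 24.5% of members, between 18.2% and 48.9% in single libraries, and Atp10b by 19.3%, between 13.6% and 28.4%. Atp10b was held by 14.5% of nuclei with Mog, an oligodendrocyte gene, at a median of 2675 UMIs per nucleus against 11449.5 in the members. Tshz2 and Atp10b were held together by 1001 members. A name that pairs the 2 genes would cover a minority, so the set is called the Tshz2-gated nuclei here, or the members. Of nuclei with Npsr1, 35.3% held Atp10b, against 14.1% of those without it.

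Membership was a matter of degree. Of the members, 2673 held 4 of the 7 genes, 1558 held 5, 660 held 6 and 325 held all 7, while 3814 nuclei with none of the barred genes held 3 and fell just outside. Among members holding exactly 4, Tshz2 was in 93.0%, Gm28905 in 91.5% and Atp10b in 1.53%. Just outside, the shares were 83%, 68.3% and 1.55%. Vwc2l was in 77.2% inside and 52.8% outside, and Gm49906 in 60.5% and 33.4%. Higher shares inside follow from the rule itself, which counts these genes. A further 5019 nuclei met the 4-gene limit and were left out for a barred gene, most often Foxp2 (2233 nuclei) or Fn1 (1941).

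**Figure D1:**
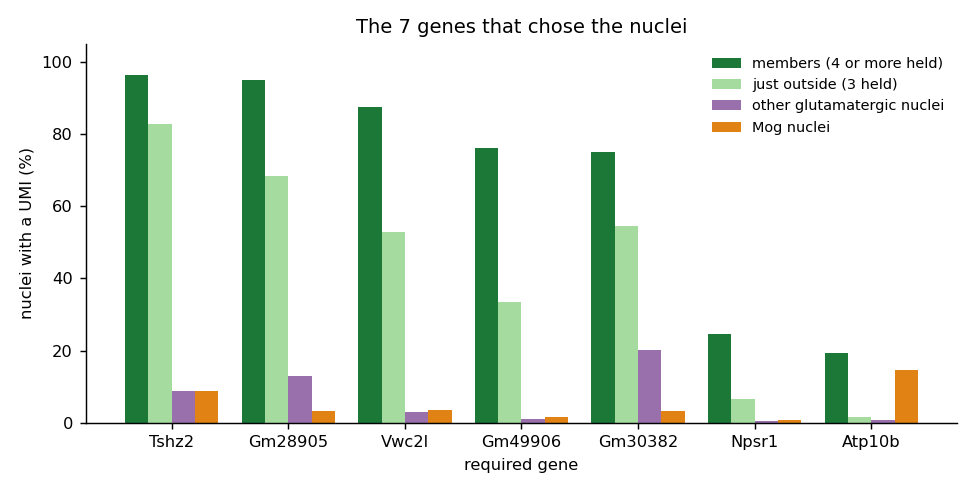
Share of nuclei with at least 1 UMI (y axis, %) of each of the 7 genes that chose the members (x axis), in the members, in nuclei just outside the limit, in other glutamatergic nuclei and in nuclei with Mog. Tshz2 was in 96.3% of members and 8.88% of other glutamatergic nuclei, whereas Atp10b was in 19.3% of members and 14.5% of nuclei with Mog.

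The members expressed glutamatergic genes, several at a lower level than other glutamatergic nuclei. Slc17a7, the vesicular glutamate transporter of most cortical and hippocampal projection neurons, was held by 73.0%. Cux2, a transcription factor best known from upper cortical layers, was held by 72.6%. A comparison set of 31633 other glutamatergic nuclei held Slc17a7 and at most 1 of the 7 genes, with a similar depth (median 10565 UMIs). The summed plain CPM of 8 glutamatergic markers was 3201 in the members against 5894 there (medians over libraries). Among them the kinase gene Camk2a stood at 703 against 1216, Grin2a at 2021 against 4188 and the transcription factor gene Neurod2 at 19.4 against 38.6. Slc17a6, a second vesicular glutamate transporter, was held by 34.7% of members and 2.32% of the other nuclei.

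Lists of markers were then summed as plain CPM over each library's members. Near-projecting neuron markers (Slc17a8, Trhr, Lypd1, Sla2, Rapgef3, Etv1, Cpne7 and Met) reached a median of 209 over libraries (range 155.6 to 297), below the 388 of other glutamatergic nuclei. The lower sum came from Cpne7 (98.2 against 261 CPM) and Etv1 (45.1 against 81.4), while 5 of the 8 markers were higher in the members, among them Rapgef3 (19.7 against 5.30) and Trhr (11.6 against 8.22). The rest of the 5 were near the floor or nearly equal: Slc17a8 (0.211 against 0.141), Sla2 (0.810 against 0.503) and Met (3.46 against 3.32). Upper-layer markers reached 471 against 220, a gap carried by Cux2 (285 against 22.8), and 4 of the 7 were lower in the members. The summed markers of corticothalamic neurons (711 against 1511), layer 5 extratelencephalic neurons (192 against 413), dentate granule cells (21.6 against 307) and inhibitory neurons (75.2 against 571) were lower in the members, with barred genes left out of both sums. The inhibitory gap was carried by Adarb2 (64.7 against 553), while Sst was nearly equal (1.41 against 1.47) and Pvalb alone was higher (0.480 against 0.217). Garnl3 alone of the corticothalamic list (169 against 121) and Pou3f1 alone of the layer 5 list (15.3 against 7.24) were higher in the members. Nuclei with Prox1 or Foxp2 were kept out of the members but not out of the other glutamatergic nuclei, of which 29.99% and 9.03% held them. The markers of the near-projecting list were thus split in direction, and the set receives no cell type name. Astrocyte markers (443 against 487) and microglial markers (42.0 against 44.6) were close to their level in other glutamatergic nuclei.

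Genes outside the rule that stood highest in the members against other glutamatergic nuclei are given as a description, since the same nuclei defined the set. The values are plain CPM with medians over the 16 libraries. Pdzrn3, which encodes a ubiquitin ligase with PDZ domains, reached 760 against 54.4, a median log2 ratio of 3.95 with 5 CPM added to both. Sgcz, which encodes a sarcoglycan, reached 4177 against 316 (3.66). Cdh20, a cadherin, reached 489 against 42.2 (3.53), and Gpc6, a cell-surface glypican, 1302 against 127 (3.52). Signaling genes were among them too: Chrm2, the muscarinic M2 acetylcholine receptor, stood at 144 against 11.9, and Ptprt, a receptor phosphatase, at 1195 against 159.

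Part of this profile was shared with upper-layer neurons. Against 1460 nuclei chosen by upper-layer genes, Pdzrn3 had a median log2 ratio of only 0.15, while Sgcz kept 1.54. Against 2976 nuclei chosen by corticothalamic genes, Pdzrn3 had 3.99. The lowest genes were Zbtb20, a transcription factor of hippocampal pyramidal and granule neurons, at 236 against 3239 CPM (-3.58), and Gria1, an AMPA receptor subunit, at 784 against 3626 (-2.16). Of 2391 genes held by no less than 50% of the members, 647 were higher than in other glutamatergic nuclei in every library, and 141 had a median ratio over 2-fold.

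Clustering on variable genes outside the rule and the interferon-stimulated list divided the members into 21 subgroups. Subgroups 1 (954 nuclei) and 2 (810 nuclei) held most of the Atp10b, with a UMI in 51.3% and 48.5% of their nuclei, and Npsr1 in 37.1% and 39.4%. Both were led by Sv2c, a synaptic vesicle protein, and Gabrg1, a GABA-A receptor subunit, with Pou3f1, a POU-domain transcription factor, leading only in subgroup 1. Libraries differed in which of the pair they held more of. Subgroup 1 held 121, 120, 107 and 143 nuclei of the WT vehicle libraries and 120, 123, 0 and 155 of the WT DMXAA libraries, but 0, 0, 1 and 5 of the Ifnar1-/- vehicle libraries and 30, 0, 24 and 5 of the Ifnar1-/- DMXAA libraries. Subgroup 2 held 5, 6, 18 and 0 WT vehicle nuclei, 2, 0, 149 and 1 WT DMXAA nuclei, 100, 90, 103 and 69 Ifnar1-/- vehicle nuclei and 57, 81, 83 and 46 Ifnar1-/- DMXAA nuclei. All Ifnar1-/- DMXAA libraries but the second thus had nuclei in both, and WT DMXAA 3 had them in subgroup 2 alone.

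**Figure D2:**
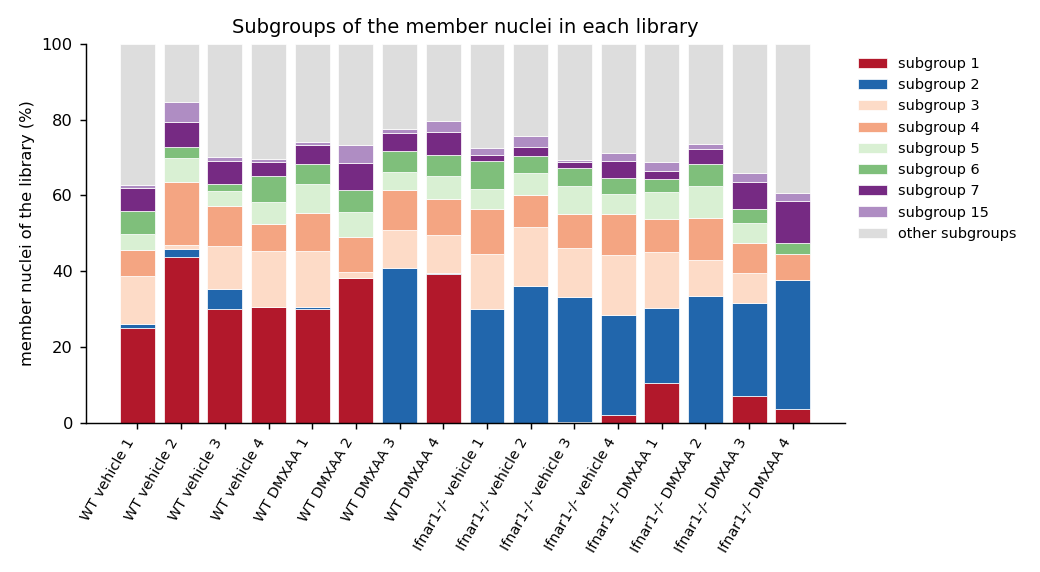
Share of each library's members (y axis, %) in 8 of the subgroups, with the rest in grey, for the 16 libraries (x axis). Subgroup 1 was larger than subgroup 2 in the WT libraries other than WT DMXAA 3 and smaller in the Ifnar1-/- libraries and in WT DMXAA 3, which had 0 and 149 nuclei in them.

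The other subgroups were smaller. Subgroup 3 (574 nuclei) was led by Rerg, Zfp804b and Cd44 and ranged from 0 to 68 nuclei per library. Subgroup 4 (498 nuclei) was led by Lgr6, by Tacr3 and Htr7, which encode receptors for neurokinin and serotonin, and by the channel gene Trpm3, and it held Npsr1 in 38.4% of nuclei and 9 to 46 nuclei in every library. Subgroups 5 (300 nuclei) and 6 (260 nuclei) both expressed Wfs1 among their leading genes, subgroup 5 with the prolactin receptor gene Prlr and subgroup 6 with Hmcn1 and Megf11. Subgroup 15 (102 nuclei), led by Synpo2, Klhl1 and Nxph1, held Npsr1 in 69.6% of nuclei and had the highest levels of the near-projecting markers Trhr and Lypd1, while Rapgef3 and Met were highest in subgroup 7, Etv1 in subgroup 10 and Cpne7 in subgroup 12. Subgroups 12 and 14 were mostly called doublets (100 of 144 and 112 of 117 nuclei), and all 6 astrocyte markers were highest in subgroup 14. In all, 347 members were called as doublets and stayed in the sums, with the values without them below where they matter.

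The members' share of the nuclei within limits did not pass the test in any of 3 comparisons between groups. The share was 3.35% to 5.54% in WT vehicle libraries (mean 4.39 ± 1.0, SD, n = 4) and 3.72% to 4.86% in WT DMXAA libraries (4.30 ± 0.54, n = 4; two-sided exact permutation p = 0.83). In Ifnar1-/- mice it was 4.01 ± 0.64% with vehicle and 3.27 ± 0.99% with DMXAA (n = 4 each, exact permutation p = 0.371), and the vehicle groups of the 2 genotypes did not separate either (exact permutation p = 0.657). All 3 had an adjusted p of 0.83, where the smallest p this design allows is 0.0286. Depth differed by genotype, with median UMIs per member of 8389 to 11803.5 in WT vehicle and 13688 to 16996 in Ifnar1-/- vehicle libraries. After thinning each nucleus to 2000 UMIs, the mean shares were 2.29% and 2.45% in WT and 2.27% and 1.82% in Ifnar1-/- mice, vehicle before DMXAA. The unthinned order of the WT groups was turned, which was within the spread of the libraries. Over nuclei holding Slc17a7 alone, the share was 7.78 ± 1.9% in WT vehicle and 9.35 ± 1.2% in Ifnar1-/- vehicle libraries, so the order of the genotypes depended on the denominator (n = 4 each, exact permutation p = 0.2, adjusted p = 0.3).

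DMXAA raised 3 genes in the members of WT mice, and all 3 are on the list of interferon-stimulated genes. They were called out of 13569 genes tested (0.0221%), and Ddx60 and Eif2ak2 are described here. Both of these had enough counts to be tested only through the WT DMXAA libraries. When the WT groups were fitted alone, 0 genes were called by edgeR, with 257 at an unadjusted p under 0.05. A call needed a log2 change of more than 0.1 either way and an adjusted p below 0.05. By an unadjusted p under 0.05, 518 genes passed (3.82%). The counts were sums over each library's members, fitted with edgeR on all 16 libraries. In such sums, more nuclei responding and a stronger response per nucleus cannot be told apart.

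Ddx60 (ENSMUSG00000037921, chr8:61928087-62038244, mm10) encodes a helicase that aids the sensing of viral RNA. Its levels were 0.321, 0.355, 0.202 and 0.589 CPM with vehicle and 11.3, 5.12, 4.28 and 4.18 with DMXAA, from 8 and 114 UMIs. The groups were far apart, although the vehicle value rests on few molecules. The log2 fold change was 3.94 ± 0.50 (SE, n = 4 per group, edgeR adjusted p = 0.00176).

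Eif2ak2 (ENSMUSG00000024079, chr17:78852564-78882573) encodes PKR, the kinase that halts translation when it binds double-stranded RNA. It stood at 0.962, 2.49, 1.62 and 1.47 CPM with vehicle and at 28.8, 7.68, 6.29 and 9.45 with DMXAA, from 31 and 247 UMIs. Again no library of either group reached the other, and WT DMXAA 1 was well above the other DMXAA libraries. The log2 fold change was 3.09 ± 0.48 (edgeR adjusted p = 0.0182). This call was less firm than that of Ddx60, since it was lost when WT vehicle 1, 3 or 4 was left out.

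Irf9 and Stat2, genes of the signaling complex, lay in the same direction without passing the test. Irf9, the DNA-binding partner of STAT2, stood at 5.61, 8.52, 8.50 and 8.98 CPM with vehicle and at 27.4, 17.1, 11.1 and 18 with DMXAA (log2 1.24 ± 0.23, edgeR adjusted p = 0.0919). Stat2 stood at 28.5, 25.6, 23.1 and 20.3 against 78.8, 36.7, 36.5 and 36.5 (0.96 ± 0.22, edgeR adjusted p = 0.386). For both, the 2 groups of libraries did not overlap. The receptor and kinase genes gave no such picture. Ifnar2 had a log2 difference of -0.15 ± 0.15, Jak1 of 0.05 ± 0.12 and Tyk2 of -0.11 ± 0.14 with DMXAA.

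**Figure D3:**
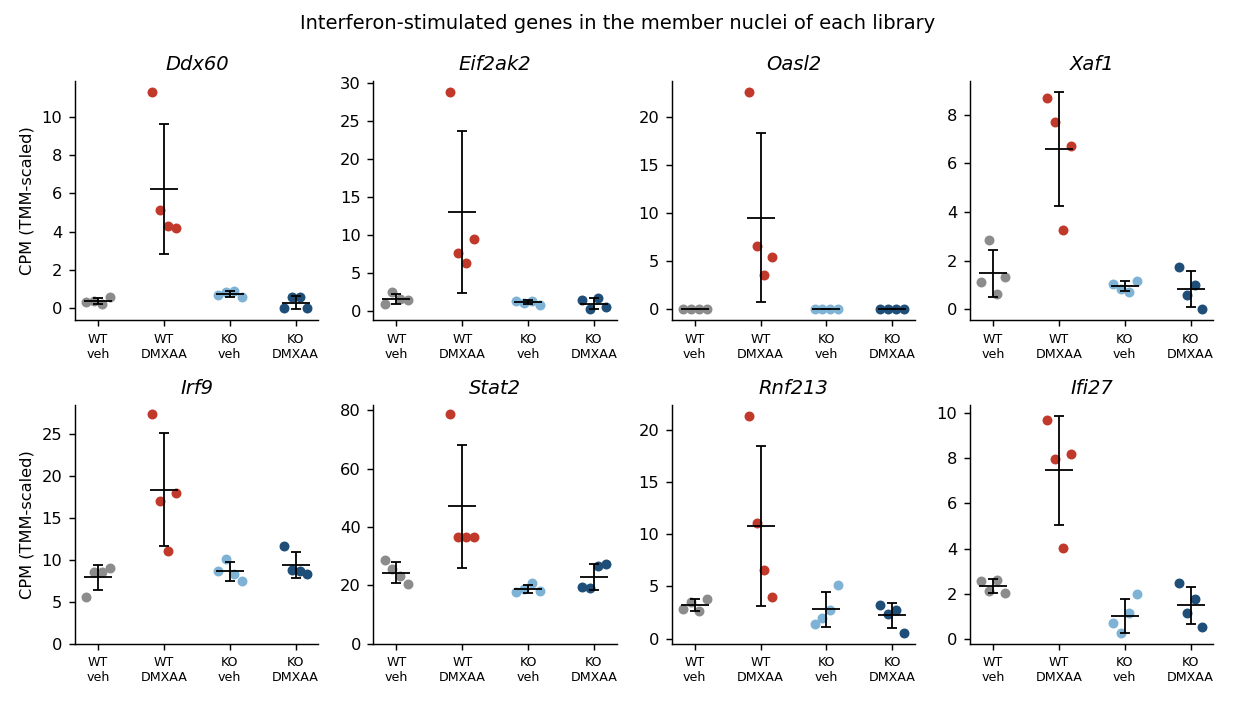
Level of 8 of the interferon-stimulated genes (y axis, CPM on TMM-scaled totals) in the members of each library (1 point per animal), by group (x axis, veh for vehicle, KO for Ifnar1-/-), with the mean and SD of 4 libraries. Ddx60 stood at 4.18 to 11.3 in WT DMXAA libraries and at 0.202 to 0.589 in WT vehicle libraries.

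Of a list of 80 interferon-stimulated genes, 78 were in the files and 21 had enough counts in the members to be tested. Of these, 3 were called higher and 0 lower, 21 of 21 had a log2 fold change above 0, and 11 had no overlap between the WT groups, higher with DMXAA (over all genes, 0.752% had no such overlap). The median of the 21 was 1.06 against 0.017 over all 13569 genes, and it stayed at 1.06 with Oasl2, which had no counts with vehicle, set at its bound. On plain totals 19 of 21 lay above 0. These counts are a description, because 6 of the 21 (Ddx60, Eif2ak2, Ifih1, Oasl2, Parp9 and Xaf1) had enough counts to be tested only through the WT DMXAA libraries. The other 15 all lay above 0 as well, with a median of 0.81 against 0.016 over the 13001 genes with enough counts in the other libraries. Xaf1, which encodes a pro-apoptotic protein, stood at 1.12, 2.84, 0.607 and 1.32 CPM against 8.67, 7.68, 3.27 and 6.72 (2.28 ± 0.42, edgeR adjusted p = 0.0919). Rnf213, a large ubiquitin ligase, had 1.73 ± 0.45 (edgeR adjusted p = 0.723) and Ifi27 1.66 ± 0.35 (edgeR adjusted p = 0.24). The antigen presentation genes H2-D1 (0.82 ± 0.48) and B2m (0.14 ± 0.40) were near the spread of the libraries, as were Adar (0.06), Mov10 (0.03) and Cmpk2 (0.10). Without WT DMXAA 3, Adar was at -0.17, Mov10 at -0.30 and H2-D1 at 1.14. The other 3 DMXAA libraries had 13.9, 17.4 and 10.5 CPM of H2-D1, above every vehicle library.

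Several genes of the list were at or near 0 without DMXAA and are given as counts, of which Oasl2 alone entered the test. Oasl2, a 2'-5'-oligoadenylate synthetase-like gene, had 0 UMIs in all 12 libraries outside WT DMXAA and 112, 23, 14 and 30 in WT DMXAA, at least 66.8-fold higher than WT vehicle if that group is given 3 counts in all (edgeR adjusted p = 0.148, for a gene that entered the test through that group alone). Ifit1, an antiviral RNA-binding protein gene, had 7, 2, 2 and 5 UMIs with vehicle and 217, 31, 7 and 39 with DMXAA, which is 0.405 to 1.12 CPM with vehicle and 1.76 to 43.7 with DMXAA. Isg15, a ubiquitin-like modifier gene, had 2, 1, 1 and 6 against 45, 5, 2 and 14. Usp18, the protease that removes ISG15 and damps the receptor, had 0, 1, 0 and 0 against 21, 15, 7 and 4, and Bst2, which tethers enveloped viruses, 0, 1, 1 and 1 against 23, 6, 6 and 9. On the CPM scale all DMXAA libraries exceeded all vehicle libraries for Ifit1, Usp18 and Bst2, and for Isg15 WT DMXAA 3 (0.503) lay below the highest vehicle library (0.883). In all, 61 of the 78 genes had more counts in WT DMXAA than in WT vehicle members.

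**Figure D4:**
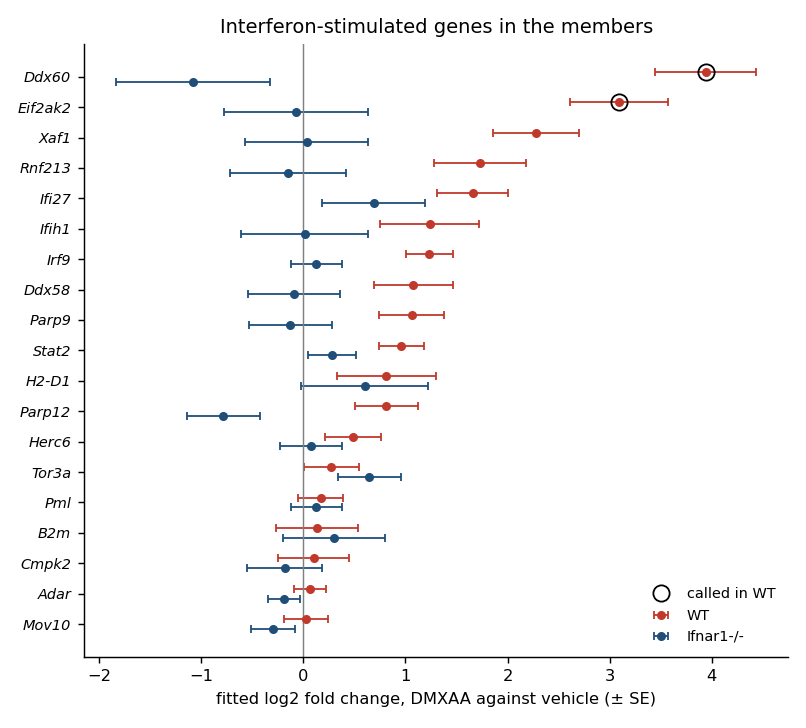
Fitted log2 fold change with its SE (x axis) of DMXAA against vehicle in WT and in Ifnar1-/- members for tested interferon-stimulated genes (y axis; Oasl2, which had no counts in 3 groups, is not drawn), with called genes circled. The WT values drawn all lie above 0, from 0.03 for Mov10 to 3.94 for Ddx60, and the Ifnar1-/- values lie on both sides of 0.

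Without WT DMXAA 3, 10 genes were called, of which 9 were on the interferon-stimulated list (among them Ddx60, Eif2ak2, Ifi27, Ifit1, Irf9, Lgals3bp, Oasl2 and Xaf1) and 1, the uncharacterised Gm12371, was lower. In the fit of all libraries, Ddx60, Eif2ak2, Oasl2 and Xaf1 had enough counts only through the WT DMXAA libraries, and Ifit1 and Lgals3bp were not tested. The share of listed genes among these calls is therefore a description. Without WT DMXAA 1, the library with the strongest response, 6 genes were called, with Ddx60 and Eif2ak2 again among them. The summed level of the whole list was 645.9 CPM in WT DMXAA 1 and 341.6 to 378.9 in the other 3 libraries.

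The promoters of these genes were searched for the interferon-stimulated response element, written as GAAA, any 2 bases and GAAA again or, on the other strand, TTTC, any 2 bases and TTTC, in the 250 bases before the gene start (RefSeq, GRCm38.p6). Of all promoters, 978 of 32851 held it (2.98%), and of the 17 tested interferon-stimulated genes with an entry, 3 did (17.6%). The windows are shown because they hold the letters that the STAT and IRF9 complex is known to read, with the motif in capitals and each on the plus strand, which is that of the gene. Ddx60 was a called gene, and Stat2 and B2m were not.
Ddx60, chr8:61928060-61928085: gcagaagaGAAACCGAAActatcctt
Stat2, chr10:128270268-128270293: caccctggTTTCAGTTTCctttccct
B2m, chr2:122147540-122147565: aagaacatGAAACTGAAAatgggaaa
The motif began 19 bases before the start of Ddx60, 222 before that of Stat2 and 139 before that of B2m. Irf9 and Eif2ak2 had no match of these letters in the window.

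In Ifnar1-/- members, DMXAA called 0 of 13569 genes (edgeR), with 1083 at an unadjusted p under 0.05 (7.98%) and 0 called by DESeq2 or limma. Of the 20 interferon-stimulated genes tested there with counts, 11 lay above 0 and 9 below, with a median of 0.017. Ddx60 had 4, 3, 4 and 2 UMIs with vehicle and 0, 2, 3 and 0 with DMXAA, too few to read a direction. The summed plain CPM of the list was 229 to 248 with vehicle and 233 to 262 with DMXAA, against 253 to 294 and 332 to 726 in WT. Adar alone made up 107 to 147 of it in Ifnar1-/- vehicle and 99.3 to 133 in WT vehicle libraries. The effect in WT minus that in Ifnar1-/- mice was 5.02 ± 0.93 for Ddx60, but none of the 13569 interaction terms was called by edgeR (lowest adjusted p = 0.252, 748 at an unadjusted p under 0.05). DESeq2 called 2 such differences, Ddx60 among them, and limma those of Ddx60 and Oasl2, so the calls rested on the tool. Both of these genes had enough counts to be tested only through the WT DMXAA libraries. When the Ifnar1-/- groups were fitted alone, 89 genes were called, 30 higher and 59 lower, against 0 in the fit of all libraries.

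No marker of a glial, vascular or choroid list was called with DMXAA in WT members by edgeR. Of the 7 microglial markers, Csf1r was at 0 by the rule, 3 were tested and 0 were called, with a median log2 difference of -0.17, or 0.10 without WT DMXAA 3 (0 also at an unadjusted p under 0.05). The myeloid genes Ifi204, Ifi207 and Ifi213 had 3, 1 and 3 UMIs in all WT DMXAA members together. The members held 5.61% of the UMIs of WT DMXAA nuclei within limits, 4.96% of their Ifit1 counts, 3.89% of Eif2ak2 and 1.81% of Ddx60 (114 of 6299). The counts of these 3 genes were thus no denser in the members than over all nuclei, and those of Ddx60 were sparser. Adar and Herc6 counts were at 6.45% and 6.62%. The microglial marker P2ry12 was held by 32.2% of members (7.58 to 85.2 plain CPM by library) and the choroid marker Ttr by 23.5% (0 to 141). In other glutamatergic nuclei these shares were 29.6% and 24.5%. Whether free RNA of other cells contributed was not tested.

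Other glutamatergic nuclei of the same mice had the larger set of calls, 32 of 17910 genes with 31 higher and 21 on the interferon-stimulated list. They were also more numerous, with 31633 nuclei against 5216 members, so more genes had enough counts. The numbers of calls therefore do not compare the size of the response. Ddx60 had a log2 fold change of 4.77 ± 0.43 there and Eif2ak2 of 2.85 ± 0.32, next to 3.94 and 3.09 in the members. The difference itself was tested in 1 fit with the library as a block. Of 50 interferon-stimulated genes tested there, 0 were called and 4 had an unadjusted p under 0.05, and of 17044 genes 2 were (0.0117%), both with a lower effect in the members.

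These were Plagl1 and Htr7. Plagl1, an imprinted zinc finger transcription factor (chr10:13060504-13131694), stood at 8.02, 6.04, 6.68 and 9.71 CPM in WT vehicle members and at 8.06, 8.82, 9.31 and 7.45 with DMXAA. The groups overlapped fully in the members, whereas in other glutamatergic nuclei the plain CPM went from 5.37, 3.81, 6.37 and 5.75 to 14.0, 15.4, 12.2 and 15.7 (log2 1.51 ± 0.26, edgeR adjusted p = 0.0203). The difference between the sets was -1.37 ± 0.18 (edgeR adjusted p = 0.0309). Both calls were fragile. Leaving out any WT DMXAA library or WT vehicle 1 gave 0 calls, as did limma, and without WT vehicle 3 Plagl1 was the 1 call. Without WT vehicle 4 both were lost and Tacr3 was called, lower in the members. Without WT vehicle 2 there were 61 calls, 50 with a higher and 11 with a lower effect in the members, and with no filter on low counts 61, 48 higher and 13 lower, so the balance of directions over all genes turned. Plagl1 and Htr7 were among the lower ones in both, with Plagl1 between -1.49 and -1.25 without single libraries.

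Htr7, the serotonin 5-HT7 receptor gene (chr19:35958734-36057507), was the other gene. It stood at 37.0, 56.1, 40.7 and 30.6 CPM in WT vehicle libraries and at 24.2, 22.8, 29.9 and 18.4 with DMXAA. In Ifnar1-/- libraries it stood at 55.1, 75.2, 66.4 and 55.8 with vehicle and at 33.7, 54.7, 28.5 and 29.4 with DMXAA. In both genotypes every DMXAA library lay below every vehicle library on this scale, in Ifnar1-/- mice by 54.7 against 55.1. In plain CPM the Ifnar1-/- groups overlapped (49.48 in the second DMXAA library and 49.25 in the fourth vehicle library). Within the members neither difference was called (WT -0.77 ± 0.22, edgeR adjusted p = 0.92; Ifnar1-/- -0.78 ± 0.21, edgeR adjusted p = 0.596), and over all genes 0.877% in WT and 4.92% in Ifnar1-/- mice were without overlap in this direction. In other glutamatergic nuclei Htr7 had 0.46 ± 0.26 in WT, and the difference between the sets was -1.18 ± 0.16 (edgeR adjusted p = 0.0309). Subgroup 4 held 27.2% of the members' Htr7 counts. Its plain CPM there was 261, 210, 156 and 92.2 in WT vehicle and 113, 102, 90.8 and 80.4 in WT DMXAA libraries, and 176, 241, 252 and 184 and then 72.4, 136, 114 and 127 in Ifnar1-/- mice. The 2 WT groups overlapped within that subgroup.

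The interferon-stimulated list was summed in each subgroup, as a description with no test. The summed plain CPM of the 78 genes, over the libraries of a group, was higher in WT DMXAA than in WT vehicle in 21 of 21 subgroups, and in 15 of 21 in Ifnar1-/- mice, where no gene was called. Single WT libraries did not overlap in 10 subgroups and overlapped in 11, as in subgroup 3, where the vehicle libraries lay at 204 to 257 and the DMXAA libraries at 178 to 609. In that subgroup WT vehicle 2 and WT DMXAA 2 had only 3 and 5 nuclei, so their values rest on few counts. The 10 without overlap include subgroups 11 and 17, where libraries without nuclei were left out. Subgroup 11 had 3, 0, 1 and 8 nuclei in the WT DMXAA libraries and subgroup 17 had 9, 13, 0 and 1. Adar, which hardly moved with DMXAA in WT (log2 0.06), alone made up 99.3 to 133 plain CPM of the list in the members of WT vehicle libraries. Sums and ratios thus also depend on the level of Adar in a subgroup. The ratio in WT ran from 1.09 in subgroups 2 and 15 to 3.64 in subgroup 6 (225 to 820). It was 2.47 in subgroup 9, 2.41 in the doublet subgroup 14 and 2.32 in subgroup 5 (307 to 712). The Atp10b-holding subgroups, with 1.30 (subgroup 1, 286 to 373) and 1.09 (subgroup 2), were among the low ones together with subgroups 15, 19 (1.22) and 20 (1.30). In subgroup 2, 149 of the 152 WT DMXAA nuclei came from WT DMXAA 3, so its ratio is that of 1 library. Without WT DMXAA 1, an alternative chosen after seeing the data, the ratio was 2.27 in subgroup 6, 2.23 in subgroup 9, 1.63 in subgroup 5 and 1.17 in subgroup 1, and it was above 1 in 20 of 21 subgroups and 0.868 in subgroup 20. In subgroup 6 that library stood at 1568 CPM and the other 3 at 347 to 635. Eif2ak2 was higher in 18 subgroups and lower in 1, and Ddx60 was higher in 13 and lower in 0. These tallies pool libraries and count a subgroup however few its UMIs. For Ddx60, subgroups 5 and 6 held 31 and 26 of the 114 WT DMXAA UMIs. Subgroups 2, 10 and 17 counted as higher on 2, 2 and 1. Fitted on subgroups 1 and 2 alone, or on the members holding Atp10b, no gene was called in WT.

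**Figure D5:**
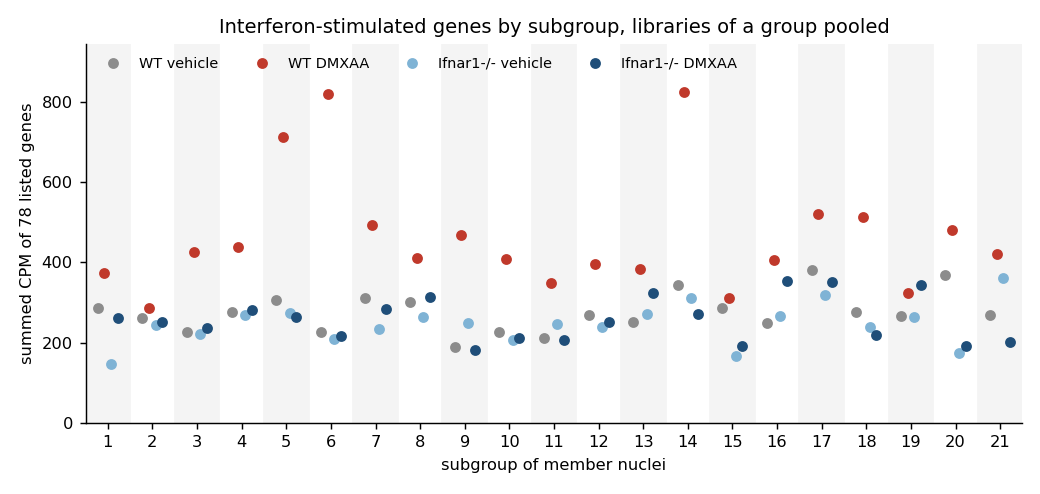
Summed plain CPM of the 78 interferon-stimulated genes (y axis) in each of the 21 subgroups of members (x axis), with the libraries of a group pooled. WT DMXAA lay above WT vehicle in 21 of 21 subgroups, with 820 against 225 in subgroup 6, where WT DMXAA 1 raised the pooled value, and 373 against 286 in subgroup 1.

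Genes of the MEF2C network, which governs synapse number and activity-dependent transcription in neurons, were examined because the study asked whether interferon lowers it. Mef2c (chr13:83504034-83667080) stood at 1039, 637, 857 and 784 CPM in WT vehicle members and at 811, 444, 675 and 628 with DMXAA. The ranges overlapped, and the log2 difference was -0.38 ± 0.18 in WT (edgeR adjusted p = 1) and -0.31 ± 0.18 in Ifnar1-/- mice (edgeR adjusted p = 0.625). The 4 further network genes named in the study gave Rgs6 -0.02, Dpp10 -0.29, Gria4 -0.19 and Pdzrn3 0.04 in WT (Pdzrn3 -0.16 without WT DMXAA 3), and -0.45, -0.11, -0.40 and -0.46 in Ifnar1-/- mice. None was called in either genotype. In simulated counts, genes drawn at random from all 13569 tested were changed. The WT fit recovered 22.4% of those changed 1.5-fold and 58.2% of those changed 2-fold, so over all genes small changes would mostly go uncalled. Recovery was not measured for genes as abundant as Mef2c, and no simulated library departed from its group. The rate for the genes named here is therefore not known. The study itself reported Mef2c and these 4 genes as lower with DMXAA in excitatory neurons of WT mice, and MEF2C protein as lower in CA1 neurons. In Ifnar1-/- mice it reported the fall of MEF2C target genes as rescued and MEF2C protein as not different. Its RNA tests compared single nuclei of all hippocampal excitatory neurons, whereas the values here are sums per library over the members alone.

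A list of 229 MEF2C targets that the study drew from excitatory neurons of other mice, with a tau transgene and with or without Cgas, gave 228 tested genes. With DMXAA in WT, 0 were called by edgeR, with 18 at an unadjusted p under 0.05 and 1 called by DESeq2. Over all genes, 518 of 13569 (3.82%) had such a p, and DESeq2 called 8. There, 146 lay above 0 with a median of 0.076, but without WT DMXAA 3 only 64 did, with a median of -0.10, so that the direction of this list depended on that library. In Ifnar1-/- mice 49 of 228 lay above 0, 0 were called and 44 had no overlap, lower with DMXAA (over all genes, 4.92%). On plain totals 108 of 228 lay above 0 there, so this lean depended on the scaling. Of the 107 targets the study picked from these same mice, which are not independent evidence, 0 were called in either genotype. In WT 10 and in Ifnar1-/- mice 18 had an unadjusted p under 0.05, where over all genes 3.82% and 7.98% did.

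Other gene groups of neurons gave no called gene with DMXAA in either genotype by edgeR or DESeq2. In WT, 44 of 66 adhesion and guidance genes lay above 0 with 5 at an unadjusted p under 0.05, 14 of 22 glutamate receptor genes with 1, 4 of 14 GABA receptor genes with 1, 21 of 32 potassium channel genes with 0, and 12 of 22 sodium and calcium channel genes with 1. Over all genes, 3.82% had such a p. Without WT DMXAA 3, 19 of 66, 1 of 22, 4 of 14, 13 of 32 and 4 of 22 lay above 0, so the direction for all but the GABA receptor genes depended on that library. Immediate early genes, which follow neuronal firing, lay below 0 in 11 of 12 cases with 1 at an unadjusted p under 0.05 and a median of -0.24 (9 of 12 and -0.23 without WT DMXAA 3).

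The vehicle groups of the 2 genotypes, which also differed in age and cohort, differed widely. Of 13569 genes, 5013 were called (36.9%), 2386 higher (17.6%) and 2627 lower (19.4%) in Ifnar1-/- members. On plain totals without TMM the split was 775 higher (5.71%) and 5420 lower (39.9%), and the median of all genes moved from -0.05 to -0.38, so the directions below are relative to the other genes. WT DMXAA 3, a WT library, was nearer to the Ifnar1-/- vehicle mean than to the WT vehicle mean for 4240 of these 5013 genes (84.6%), against 3.97%, 8.52% and 4.47% in the other WT DMXAA libraries and 61.8%, 86.2%, 65.8% and 59.8% in the Ifnar1-/- DMXAA libraries. In the library labelled WT DMXAA 3 most of these genes thus did not follow the genotype label, and in the Ifnar1-/- DMXAA libraries part of them did not either. Malat1, an abundant nuclear RNA, moved with the same split: in plain CPM it was 39083 to 51702 in WT vehicle and 9947 to 16963 in Ifnar1-/- vehicle libraries, with 20594 in WT DMXAA 3 and 56005 to 75533 in the other WT DMXAA libraries. The part of nuclear RNA content, depth, age or cohort in these differences was not tested.

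Taco1, a translational activator of a mitochondrial enzyme, stood at 10.7, 7.81, 11.1 and 11.6 CPM in WT vehicle members and at 82.8, 143, 56.8 and 55.2 in Ifnar1-/- vehicle members. WT DMXAA 3 again lay between, at 45.8, and the other WT DMXAA libraries at 9.10 to 13.8. The log2 difference was 2.99 ± 0.41 (edgeR adjusted p = 0.00214). Slc17a7 stood at 152, 158, 154 and 164 CPM against 98.5, 93.5, 90.8 and 84.8 (-0.77 ± 0.12, edgeR adjusted p = 0.00214), with 117 in WT DMXAA 3. Neurod6, a transcription factor of cortical projection neurons, fell by 1.37 on the log2 scale, from 52.2 to 72.4 CPM down to 16.6 to 30.5. Grin2a, an NMDA receptor subunit gene, was higher at 2389 to 2847 against 1263 to 1678 (0.89 ± 0.17, edgeR adjusted p = 0.0026), and Cck, the cholecystokinin gene, lower by -1.13 ± 0.23. Among the 7 genes that chose the members, 4 were also called higher (Tshz2 0.67, Gm30382 0.53, Vwc2l 0.50 and Gm49906 0.26), which is given as a description because these genes and the depth of the nuclei set who was a member.

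Groups of neuronal genes leaned higher in Ifnar1-/- vehicle members on the TMM scale. Of 66 adhesion and guidance genes 37 were called higher and 0 lower, of 22 glutamate receptor genes 14 and 0, of 14 GABA receptor genes 7 and 0, of 32 potassium channel genes 14 and 3, and of 22 sodium and calcium channel genes 12 and 1, where over all genes 17.6% were higher and 19.4% lower. On plain totals these counts became 20 and 5, 8 and 2, 3 and 3, 7 and 5, and 5 and 6, where over all genes 5.71% were higher and 39.9% lower. In each group the share called higher was above that of all genes, and the share called lower below it, on both scales. Of 12 immediate early genes 6 were lower (Fos, Fosb, Junb, Jun, Egr1 and Arc) on the TMM scale, and 7 on plain totals. All 3 tested microglial markers were lower as well, among them P2ry12 (-1.59 ± 0.41) and Cx3cr1 (-1.53 ± 0.40), with P2ry12 at 35.0 to 57.2 CPM in WT vehicle, 9.29 to 20.5 in Ifnar1-/- vehicle and 8.30 in WT DMXAA 3. Of the 21 interferon-stimulated genes, 2 were called higher (Adar and Mov10) and 2 lower (Ifi27 and Tor3a), shares below those of all genes in either direction. Of the 228 MEF2C targets, 144 were called higher and 4 lower, and on plain totals 82 and 19.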

How the data were processed

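Single-nucleus RNA-seq (10x 3′ chemistry) was read from 16 libraries. The deposited matrices hold raw UMI counts per gene and barcode, which the authors made with Cell Ranger on mm10 counting reads of unspliced RNA, with no normalization. The file headers name version 6.1.2, and the submitters' processing notes Cell Ranger 3.1.0 and Seurat 3.0. Each file lists 32285 genes, and 32235 were placed by GENCODE M21 identifiers.

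Members and gene lists were chosen with earlier results of these data known. The study's own limits (200 to 4000 genes, doublets removed) were wider below and narrower above, and 1794 members had over 4000 genes. UMIs were summed per library and tested with edgeR 4.0.16 (R 4.3.3), by the two-sided quasi-likelihood test after TMM scaling and filterByExpr, on all 16 libraries in 4 groups, with Benjamini-Hochberg adjustment over all genes tested. Alternatives used DESeq2 1.42.0, limma 3.58.1 (prior count 1), other scalings, filters, member rules and left-out libraries. The difference in effect between members and other glutamatergic nuclei was fitted with the library as a block. Doublets were called from simulated doublets at 0.8% per 1000 barcodes. Subgroups came from Leiden clustering (leidenalg 0.10.2; 2000 variable genes without the required, barred and interferon-stimulated genes, 20 principal components, 15 neighbours, resolution 0.5; Python 3.11.15). The scripts were tested on simulated data.

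Named genes were the 7 required genes, the near-projecting, glutamatergic and MEF2C-network genes, Ifnar1, up to 5 called genes each way per contrast without overlap, the 15 genes highest against other glutamatergic nuclei, the interferon-stimulated genes with the most counts, and up to 4 genes per other list. Further interferon-stimulated genes, the lowest genes of the profile and subgroup genes were named after their values were seen. Intervals and errors cover the spread between animals, and totals of 1911882 to 6384662 member UMIs limit genes under about 1 CPM to a few counts. Each SE of an edgeR log2 fold change was derived from the test, as the absolute change divided by the square root of the F statistic. Some listed genes (Mx1, Mx2 and Atp10d) were not analysed here, and some items are not reported here.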

Additional observations from a re-analysis of the deposited data

Results flagged for a closer look

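In 60 groups of 4 libraries checked, 3 values lay far from the other 3 libraries of their group by Dixon's ratio, where chance gives about 1 in 20. All 3 were WT DMXAA 1, and all were interferon-stimulated levels in the members. The summed level of the interferon-stimulated list was 645.9 CPM (TMM-scaled) there and 341.6 to 378.9 in the other WT DMXAA libraries. Ddx60 was at 11.3 CPM against 4.18 to 5.12, and Eif2ak2 at 28.8 against 6.29 to 9.45. The 3 values come from the same animal and are not independent. In plain CPM, the summed list of that animal was also the highest in other glutamatergic nuclei (829, against 396 to 468 in the other WT DMXAA libraries) and over all nuclei (1122, against 465 to 650).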

How the results depend on the processing

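No paired analysis was possible because replicate numbers were given in accession order and pair no animals. The count of genes called with DMXAA in WT, 3 in the fit reported, was 8 by DESeq2, 15 with no filter on low counts, 7 when 3 of the 7 required genes sufficed, 1 when 5 were needed and 1 with 200 to 4000 genes per nucleus, 0 when only the compared groups were fitted, 0 in members holding Atp10b and 0 in the Atp10b-holding subgroups. Leaving out single libraries gave 2 to 10, with 10 without WT DMXAA 3. Limma called 3, with Oasl2 in place of Eif2ak2. In Ifnar1-/- mice the count of 0 became 89 when only the compared groups were fitted and ranged from 0 to 1 without single libraries.
The interaction, with 0 called, gave 2 by DESeq2, 2 by limma, 1 with no filter, 1 when 3 required genes sufficed and 0 to 1 without single libraries. The 5013 genes between vehicle groups became 2008 in members holding Atp10b, 2856 in the Atp10b-holding subgroups and 3401 to 6346 without single libraries. The 2 genes whose DMXAA effect in WT differed between members and other glutamatergic nuclei became 61 with no filter. Of these, 48 had a higher effect in the members. Limma gave 0, and leaving out single libraries gave 0 to 61. The difference in members' share with DMXAA in WT (-0.09 percentage points) turned to 0.108 with 200 to 4000 genes, 0.322 over nuclei holding Slc17a7 and 0.165 after thinning, with -0.437 to 0.295 without single libraries. In Ifnar1-/- mice it ran from -0.985 to -0.268 without single libraries. Between vehicle groups it became 1.57 over nuclei holding Slc17a7 and ran from -0.722 to 0.00927. The causes were not tested.

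Among named genes, 842 of the alternative values kept direction and call, 28 lost a call, 16 gained one and 29 turned. All of the last concerned DMXAA in WT, for genes not called in that comparison. Rgs6 turned to 0.0966 with 200 to 4000 genes, 0.00810 without doublets, 0.0167 without Atp10b holders, 0.0945 in the Atp10b-holding subgroups and 0.00797 without the doublet subgroups (-0.211 to 0.110 without single libraries). On plain totals Pdzrn3 was at -0.0418 (-0.163 to 0.15 without single libraries), Adar at -0.0260 (-0.166 to 0.140) and Mov10 at -0.0516 (-0.304 to 0.154). Mov10 was also at -0.0245 by limma, -0.236 with 5 required genes, -0.0111 without doublets, -0.0568 in Atp10b holders and -0.353 in the Atp10b-holding subgroups. Herc6 was at -0.124 in Atp10b holders, Tor3a at -0.0879 with 200 to 4000 genes, and Pml at -0.149 with 200 to 4000 genes, -0.119 in Atp10b holders and -0.296 in the Atp10b-holding subgroups (-0.0441 to 0.290 without single libraries). Genes under a few UMIs per library, such as Isg15 and Usp18, were too shallow to test in most settings.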
